A study of Mus musculus with 53 samples.

Results

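A set of 10 genes that mark mesothelium was followed through 22 RNA libraries of mouse embryonic fibroblasts (MEFs): Upk3b, Upk1b, Podxl, Msln, Wt1, Bnc1, Gpm6a, Lrrn4, Pkhd1l1 and Rspo1. They were taken by symbol, and all 10 were found among the 43432 genes listed in both deposited RNA tables. The genes were picked because earlier work on these files had found them high in cells that lack a normal Anp32e gene and were kept in DMSO. The comparison of those cells with wild type in DMSO, and every comparison of the set with those DMSO libraries, is therefore a description, and no p-value is given for it.

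Wild-type (WT) MEFs and MEFs labelled as an ANP32E knockout (KO) were treated with decitabine (DAC), a cytosine analogue that blocks DNA methyltransferases, or with DMSO. That experiment has 2 libraries of each genotype in DMSO and 3 of each in DAC, in FPKM (fragments scaled to transcript length and library size). In a second table, in RPKM (reads scaled in the same way), both genotypes were transfected with siRNA to H2A.Z (H2AZ siRNA) or with the siRNA named NT, and each of these 4 groups has 3 libraries. ANP32E is a chaperone that takes the histone variant H2A.Z off chromatin. MEFs are cells grown out of whole embryos rather than one sorted type. The strain, the embryos' age, the knockout allele, the doses, the times and whether each genotype is 1 line or several cannot be read from the labels. The libraries are labelled biological replicates, those of KO H2AZ siRNA only replicates, and nothing says that they are separate cultures, so p-values measure the spread between these libraries alone. The 2 tables were normalised separately, and no level is compared between them.

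Mesothelium is the single layer of flat cells that lines the pleural, pericardial and peritoneal cavities and covers the organs in them. It arises from mesoderm, keeps keratins and an apical surface like an epithelium, and can turn into fibroblast-like cells, a change in which its markers decline. Uroplakins and podocalyxin sit on its apical membrane, mesothelin is anchored to its surface, and R-spondin 1 is one of the proteins it secretes. In bulk RNA, fewer cells of a type and less RNA per cell cannot be told apart.

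Whole-library checks came first. Depth was 27503472 to 36910532 reads per library with DAC or DMSO and 31928320 to 47172427 with siRNA, so that 1 read in a gene of 1 kb was worth 0.0271 to 0.0364 FPKM or 0.0212 to 0.0313 RPKM. Anp32e averaged 14.5 FPKM in WT against 5.09 in KO with DMSO, 15.7 against 6.96 with DAC, and 19.3 against 5.07 RPKM with NT and 18.4 against 5.37 with H2AZ siRNA, so transcript was lower and still present in KO. H2afz, the main H2A.Z gene, averaged 202 RPKM in WT NT and 17.2 in WT H2AZ siRNA, and 194 and 27.9 in the matching KO groups. The fibroblast genes Col1a1 and Vim were high in every group, Col1a1 at 397 to 1484 FPKM and 76.9 to 117 RPKM. The Y-linked genes Ddx3y, Kdm5d, Uty and Eif2s3y had 2363 to 5031 summed reads in each KO library of the DAC table and 0 to 37 in each WT library, and Xist averaged 175 and 162 FPKM in WT DMSO and WT DAC against 0.751 in KO DMSO and 33.9 in KO DAC. Genotype and the sex of the cultures therefore cannot be told apart in any KO-against-WT value below. The KO groups also differed from each other, with 2400 and 2363 Y-linked reads in KO DMSO and 4872, 4337 and 5031 in KO DAC. Whether the make-up of the KO cultures differed between DMSO and DAC was not tested.

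One library goes against its group. WT DAC replicate 3 had the highest value of its group for 7 of the 10 genes, such as 155 Upk3b reads against 5 and 2 in replicates 1 and 2, and it was also the one WT DAC library with Y-linked reads, 37 against 0 and 0. The main results that use it are given with and without it.

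The 10 genes lie on 9 chromosomes, so they do not form a cluster in the genome. In mm10, Wt1 is at chr2:105126529-105173614, Lrrn4 at chr2:132866686-132894010, Rspo1 at chr4:124986401-125009102, Upk3b at chr5:136038496-136044993 and Podxl at chr6:31519493-31563937. Bnc1 is at chr7:81966657-81992299, Gpm6a at chr8:54779434-55060878, Pkhd1l1 at chr15:44457396-44601376, Upk1b at chr16:38773182-38800203 and Msln at chr17:25748613-25754378. Lrrn4 overlaps Crls1, a gene with 396 and 442 reads in the WT DMSO libraries, in which Lrrn4 has 0, so Crls1 reads were not counted as Lrrn4 there. Rspo1 overlaps Gm12930 and Gpm6a overlaps LOC115486929. The library kit keeps strand, but the labels do not say whether the counting used it.

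Promoter sequence was at hand for 5 of the genes, from RefSeq on GRCm38.p6 (the mm10 assembly). It is shown because DAC lowers DNA methylation, which in mammals lies mainly on CG dinucleotides. Each line gives the 200 bases from 250 to 51 bases before the start site, 5′ to 3′ along the gene, with CG dinucleotides in capitals.
Upk3b (chr5:136038246-136038445, plus strand): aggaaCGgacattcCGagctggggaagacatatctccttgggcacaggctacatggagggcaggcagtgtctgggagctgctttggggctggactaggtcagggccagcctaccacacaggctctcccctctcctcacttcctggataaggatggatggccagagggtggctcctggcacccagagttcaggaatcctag
Lrrn4 (chr2:132880913-132881112, minus strand): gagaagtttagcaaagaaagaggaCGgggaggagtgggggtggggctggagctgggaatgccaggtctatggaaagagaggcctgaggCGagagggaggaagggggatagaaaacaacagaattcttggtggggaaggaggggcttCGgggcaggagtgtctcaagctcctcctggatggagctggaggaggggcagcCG
Rspo1 (chr4:124986180-124986379, plus strand): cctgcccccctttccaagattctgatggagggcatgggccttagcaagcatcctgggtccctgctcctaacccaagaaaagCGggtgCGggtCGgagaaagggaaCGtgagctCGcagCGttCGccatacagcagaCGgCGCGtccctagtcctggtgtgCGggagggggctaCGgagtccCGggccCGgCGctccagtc
Bnc1 (chr7:81992350-81992549, minus strand): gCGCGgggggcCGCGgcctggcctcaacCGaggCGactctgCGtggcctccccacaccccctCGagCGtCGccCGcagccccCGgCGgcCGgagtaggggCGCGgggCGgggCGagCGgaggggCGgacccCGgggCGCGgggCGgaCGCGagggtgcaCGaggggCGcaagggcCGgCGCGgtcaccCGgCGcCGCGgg
Gpm6a (chr8:54779184-54779383, plus strand): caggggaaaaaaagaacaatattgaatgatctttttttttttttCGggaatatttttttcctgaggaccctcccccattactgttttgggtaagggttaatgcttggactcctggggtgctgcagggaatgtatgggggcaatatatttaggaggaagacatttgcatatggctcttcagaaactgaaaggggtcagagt
CG content differed widely within the set. The Bnc1 window held 35 CG, a number reached by 0.615% of the 32851 promoter windows of the same length in the table, whose median was 4. The Rspo1 window held 15, reached by 17.8%. The windows of Lrrn4, Upk3b and Gpm6a held 4, 2 and 1, reached by 54.2%, 75.4% and 89.1%. For Gpm6a the upstream of its 2 listed starts is shown; the window of the other held 3 CG, reached by 63.6%. The Lrrn4 window belongs to a listed start inside the gene's outer bounds given above. The letters GATAA, read on both strands and bound by GATA factors, stood in the Upk3b window and in 19.3% of all windows. The letters GGAATG, bound by TEAD factors, stood in the windows of Upk3b and Lrrn4, in the shown but not the other window of Gpm6a, and in 10.7% of all windows on either strand. A match is a description of letters, not of binding.

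In KO MEFs in DMSO all 10 genes were clearly present, at group means of 21.6 to 384 FPKM, and 8 of them were under 1 FPKM in WT DMSO. The 2 exceptions in WT were Msln and Podxl. The surface genes came first. Upk3b, a uroplakin of the apical membrane, was at 0.0556 and 0.108 FPKM in the WT DMSO libraries (4 and 8 reads) and at 372 and 396 in the KO DMSO libraries. Upk1b, a tetraspanin of the uroplakin family, was at 0.0369 and 0 in WT and at 106 and 111 in KO. Podxl, the sialomucin podocalyxin, was at 1.62 and 1.86 in WT and at 290.1 and 284 in KO, a ratio of means of 165. These 3 genes went from trace or low levels to levels near or above that of the collagen gene Col1a2, which averaged 109 FPKM in KO DMSO. All 3 stayed below Col1a1 in that group. Msln, the surface protein mesothelin, differed far less. It was at 6.8 and 5.02 in WT and at 20 and 23.2 in KO, a ratio of 3.65, so WT MEFs already carried it.

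The 2 zinc-finger transcription factors of the set followed the uroplakins. Wt1, needed for the mesothelium and the organs that form beneath it, was at 0.0105 and 0.0205 FPKM in WT DMSO and at 60.2 and 62.7 in KO DMSO. Bnc1 (basonuclin 1) was at 0.014 and 0 in WT and at 21.2 and 24.1 in KO. For both genes the WT values stand for at most 4 reads in a library.

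Membrane proteins without a textbook role in this tissue showed the same split. Gpm6a, a proteolipid-family glycoprotein best known from neurons, was listed at 0 in both WT DMSO libraries and at 105 and 99.8 FPKM in KO DMSO. Lrrn4, a leucine-rich repeat protein, was also listed at 0 in both and at 55 and 61.5 in KO. Against a floor of 3 reads per library these are at least 3529-fold and at least 2241-fold higher levels. Pkhd1l1, a very large fibrocystin-like protein, was at 0.0613 and 0.0922 in WT and at 128 and 121 in KO. Rspo1, a secreted factor that strengthens Wnt signals through Lgr receptors, was at 0.791 and 0.492 in WT and at 63.4 and 63.7 in KO, a ratio of 99.1.

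**Figure D1:**
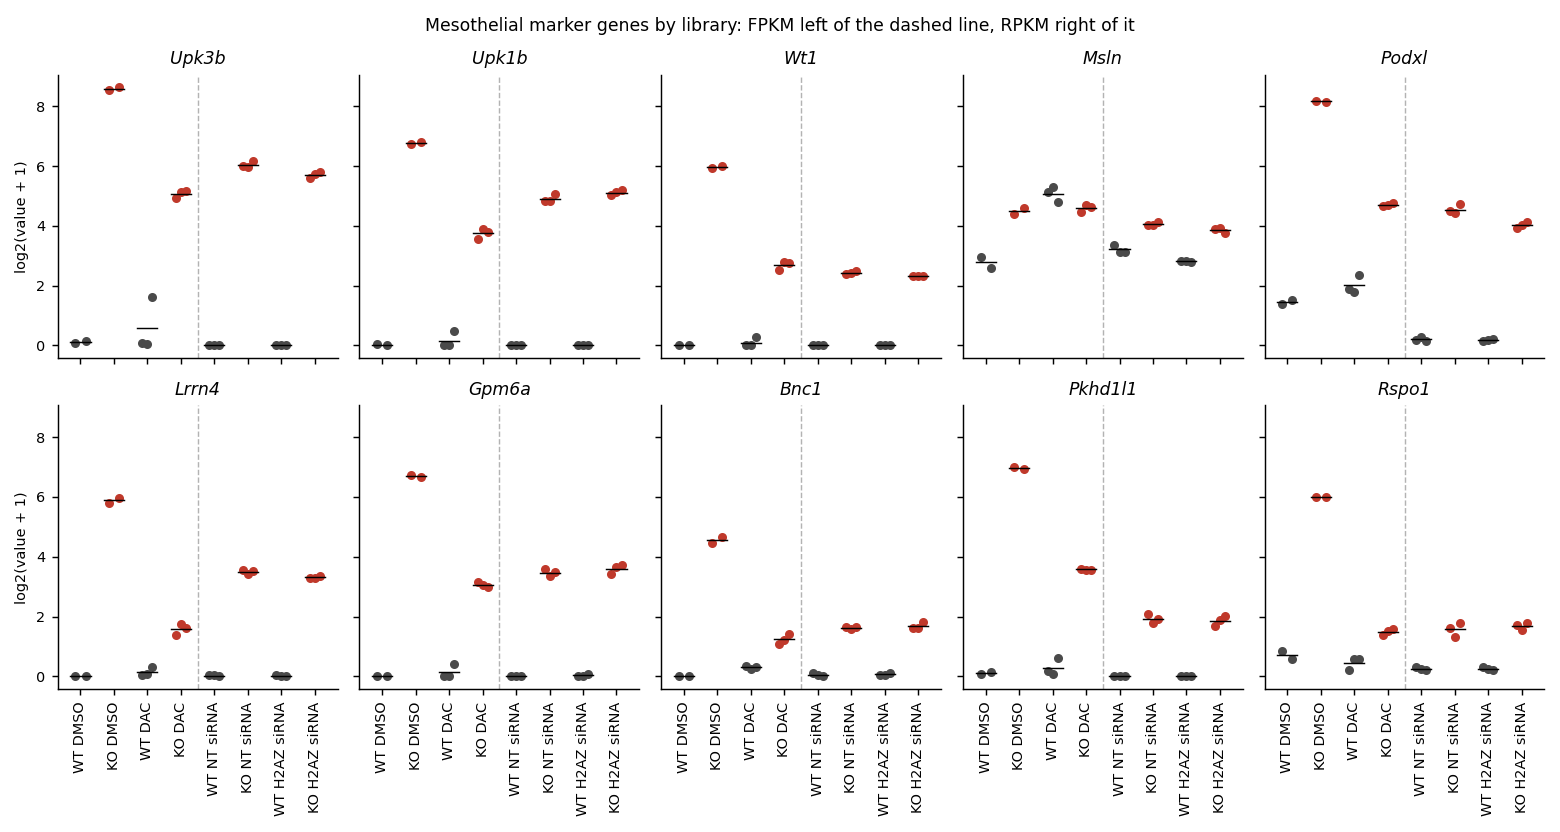
Each panel plots log2(value + 1) of 1 gene in single libraries (points) with the group mean (bar), WT in grey and KO in red; values are FPKM left of the dashed line and RPKM right of it. KO libraries lie above WT libraries in every panel and condition except for Msln under DAC, and KO DMSO is the highest FPKM group for 9 of the 10 genes.

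All 10 genes had every KO DMSO library above every WT DMSO library, as had 34% of the 16434 genes tested in that table, while 40.8% had every KO library below. These shares are background only, since this contrast chose the genes. The median difference of the 10 was 6.31 on the log2(FPKM + 1) scale, against -0.04 over all tested genes. By level, KO DMSO ran Upk3b, Podxl, Pkhd1l1, Upk1b, Gpm6a, Rspo1, Wt1, Lrrn4, Bnc1 and Msln. The libraries of Wt1 and Lrrn4, and those of Bnc1 and Msln, overlapped, while all other neighbours in this order were apart. Upk3b and Podxl made up 31.1% and 23.3% of the summed FPKM of the set. In WT DMSO the order was another one, with Msln at 69.6% and Podxl at 20.5% of a sum of 7.6 to 9.39 FPKM.

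DAC-treated KO MEFs held much less of this RNA. For 9 of the 10 genes every KO DAC library lay below every KO DMSO library, and each of these 9 fell short of its KO DMSO mean by 8.66-fold to 34.8-fold, with a median of 11.7-fold. A gap of at least 5-fold was found for 3.22% of the genes tested, and a complete separation for 31.3% downward and 33.3% upward. Since the KO DMSO libraries chose the genes, nothing is read from these shares. Upk3b was at 29.6, 33.9 and 35.1 FPKM in KO DAC, 11.7-fold below KO DMSO. Podxl was at 24.1, 24.9 and 25.9, 11.5-fold below. Pkhd1l1 was at 11.1, 10.9 and 10.9, 11.4-fold below, and Wt1 at 4.77, 5.86 and 5.8, 11.2-fold below. These 4 genes, on different chromosomes and with different roles, had nearly the same ratio.

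The other genes spread further. Upk1b was at 10.9, 13.8 and 12.8 FPKM in KO DAC, with the smallest gap of the 9 at 8.66-fold. Gpm6a was at 7.96, 7.3 and 6.94, 13.8-fold below KO DMSO, and Bnc1 at 1.13, 1.3 and 1.65, 16.6-fold below. Lrrn4 was at 1.61, 2.34 and 2.09, and Rspo1 at 1.58, 1.87 and 2.03. They had the widest gaps, 28.9-fold and 34.8-fold. In all, 7 of the 9 genes were within 1.5-fold of the median ratio. Msln did not share the pattern. It was at 21.1, 25 and 23.6 in KO DAC, overlapping the 20 and 23.2 of KO DMSO.

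**Figure D2:**
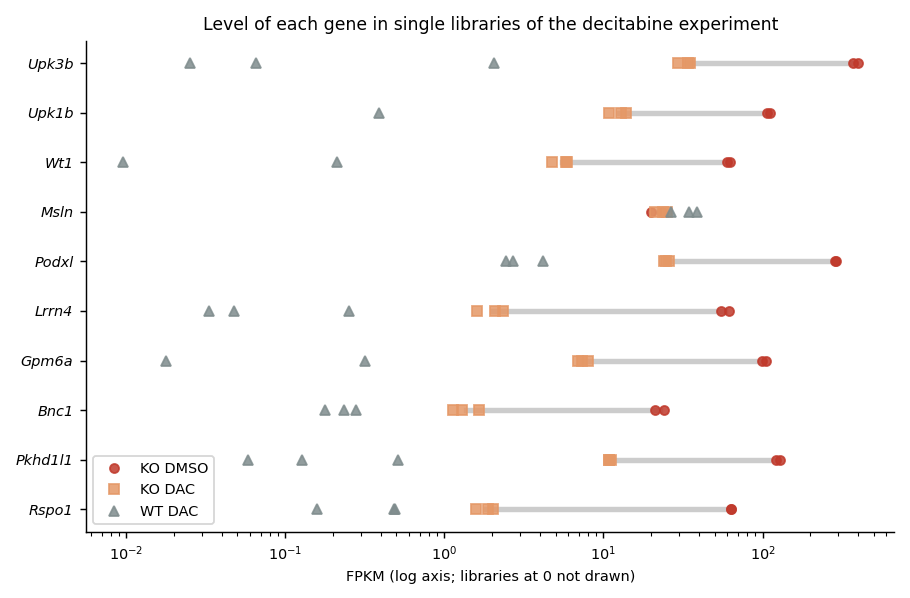
Points are single libraries of the FPKM table on a log axis: KO DMSO (circles), KO DAC (squares) and WT DAC (triangles), with a grey line from the KO DAC mean to the KO DMSO mean; libraries at 0 are not drawn. The lines are of similar length for Upk3b, Wt1, Podxl and Pkhd1l1, longest for Lrrn4 and Rspo1, and absent for Msln, whose 3 groups lie close together.

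Other markers moved in the same libraries. Of 9 fibroblast genes that passed the filter, 7 were lower and 2 higher in KO DAC than in KO DMSO without overlap. Of all tested genes 31.3% were lower and 33.3% higher in this way. Against WT DMSO, 6 of these 9 were lower and 2 higher in KO DMSO without overlap (40.8% and 34% of all genes). The list of 10 summed to 1442 to 1482 FPKM in KO DMSO and 1113 to 1286 in KO DAC. In WT DMSO it summed to 2513 to 2643 FPKM. Col1a1 averaged 753 in KO DMSO and 397 in KO DAC, and Dcn 159 and 26.4, while Vim averaged 238 and 495. For KO against WT with NT siRNA, 6 of 8 tested fibroblast genes were called higher and 0 lower (23.7% and 40.4% of all genes). The same counts were found with H2AZ siRNA (20.2% and 42.7% of all genes). The part of cell composition in the DAC values was not tested.

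In WT MEFs most of the set stayed low with DAC, and Msln differed most. The WT DMSO libraries took part in choosing the genes, so these values too are a description. Msln was at 34.4, 38.5 and 26.6 FPKM in WT DAC against 6.8 and 5.02 in WT DMSO. The ratio of means was 5.61, and the log2 fold change on the log2(FPKM + 1) scale was 2.30 ± 0.16 (estimate ± standard error), or 2.45 without WT DAC replicate 3. All 3 DAC libraries lay above both DMSO libraries, and the difference was 2.11 to 2.49 over 12 other settings. Podxl was at 1.62 and 1.86 FPKM in WT DMSO and at 2.71, 2.43 and 4.15 in WT DAC, a log2 fold change of 0.56 ± 0.15, or 0.38 without replicate 3. Limma called these 2 of the 10 genes higher, a count from which nothing is read, where 14.5% of all tested genes were higher, and 0 were called lower, where 13.8% were; 0 were lower also at an unadjusted limma p under 0.05 or in limma-voom. The Podxl call ended without either WT DMSO library and in a fit of the WT groups alone. The remaining 8 genes differed by -0.26 to 0.47, and the median of the set was 0.16 against -0.01 for all genes.

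Bnc1 in WT is best read from its counts. It had 2 reads in all in WT DMSO and 42, 28 and 35 reads in the WT DAC libraries, and its log2 fold change was 0.29 ± 0.11, not called. With a pseudocount of 0.1 it was 1.62 and in limma-voom on recovered reads 4.90. The gene was called in both and in a fit of the WT groups alone. The WT DMSO libraries took part in choosing it, so nothing is read from these calls. Rspo1 was at 0.159, 0.487 and 0.483 FPKM in WT DAC against 0.791 and 0.492 in WT DMSO (-0.26 ± 0.14). Upk3b was at 0.0659, 0.0252 and 2.06, Upk1b at 0, 0 and 0.388, and Gpm6a at 0, 0.0177 and 0.318. In these 3 genes the group mean rests mostly on replicate 3.

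**Figure D3:**
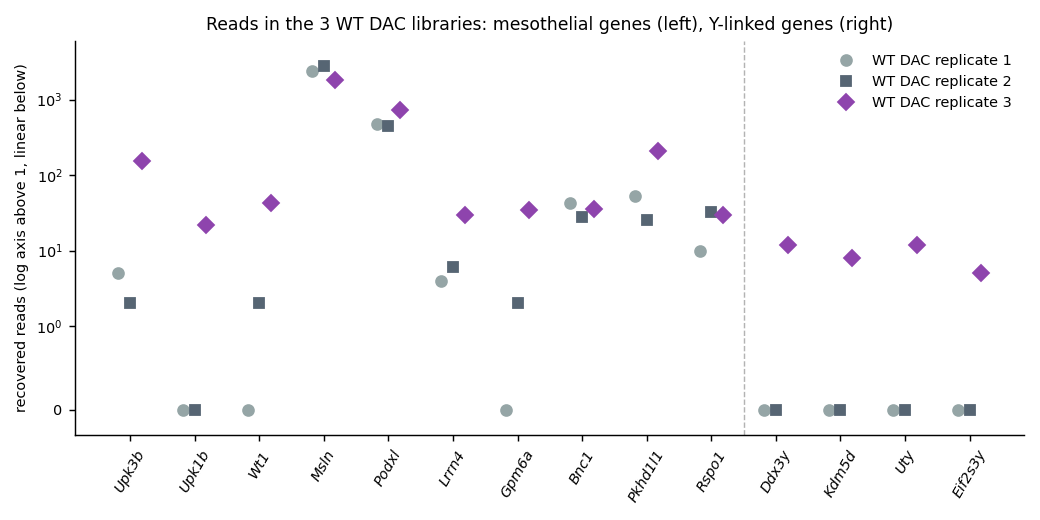
Recovered reads (log axis above 1, linear below) of the 10 mesothelial genes and 4 Y-linked genes in the 3 WT DAC libraries. Replicate 3 (diamonds) is above the other libraries for Upk3b, Upk1b, Wt1, Podxl, Lrrn4, Gpm6a and Pkhd1l1 and is the only one above 0 for the Y-linked genes.

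The size of that excess can be set beside the KO libraries. For Upk3b, replicate 3 stood above the mean of replicates 1 and 2 by 6.14% of the KO DAC mean, and for Podxl by 6.32%. Upk1b, Wt1, Pkhd1l1 and Gpm6a gave 3.1%, 3.78%, 3.82% and 4.18%, and Lrrn4 10.5%. The Y-linked genes gave 0.532% to 1.35% of the KO DAC mean. Set against KO DMSO means, the 7 genes gave 0.303% to 0.55% and the Y-linked genes 0.939% to 2.34%. The source of these reads was not tested.

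Under DAC, KO still held more of 9 of the genes than WT. Upk3b averaged 32.9 ± 2.93 FPKM in KO DAC (SD, n = 3) and 0.718 ± 1.16 in WT DAC (n = 3), a log2 fold change of 4.50 ± 0.36. Without WT DAC replicate 3 the WT mean was 0.0455, and the ratio of means moved from 45.8 to 722 (log2 fold change 5.01). Pkhd1l1 differed by 3.30 ± 0.12, and its ratio moved from 47.1 to 118 without that library. Podxl was 8.07-fold higher in KO DAC, a log2 fold change of 2.69 ± 0.13 (limma adjusted p = 4.9e-06), and 9.73-fold without it. Lrrn4 was 18.2-fold higher, and 49.8-fold without it, though it averaged 2.02 FPKM in KO DAC. The smallest gaps were those of Rspo1, 4.84-fold (1.04 ± 0.12), and Bnc1, 5.9-fold (0.93 ± 0.10), which were 5.64-fold and 5.96-fold without that library.

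The genes called higher in KO DAC were 9 of 10, where 11.1% of all tested genes were higher. Msln, with 3 WT DAC libraries at or above 26.6 FPKM and 3 KO DAC libraries at or below 25, was called lower (-0.48 ± 0.15, limma adjusted p = 0.0477), as were 11.6% of all genes. The Msln call was lost in 9 of 13 other settings, with limma adjusted p up to 0.148, and stands at -0.63 (limma adjusted p = 0.0116) without WT DAC replicate 3. In the FPKM table only Msln and Podxl reached the filter of 1 FPKM in 2 libraries through WT libraries. The other 8 genes entered the test through KO libraries and could hardly enter it without differing, so no p-value is given for them and the count of 9 supports nothing.

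In the siRNA table the 10 genes were again higher in KO than in WT, with NT siRNA and with H2AZ siRNA. Upk3b was at 62.5, 61.8 and 70.4 RPKM in KO NT, where the 3 WT NT libraries held 1 read in all. Its log2 fold change was 6.04 ± 0.06. Upk1b was at 27.8, 27.6 and 32.4 in KO NT and at 0 in all 3 WT NT libraries, at least 721-fold higher. Wt1 was at 4.3, 4.35 and 4.6 and also at 0 in WT NT, at least 381-fold higher. Podxl was at 21.6, 20.5 and 25.3 against 0.144, 0.222 and 0.119, a 139-fold difference (4.33 ± 0.08). In these 4 genes WT and KO were far apart in every library.

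Msln again differed least. It was at 15.5, 15.4 and 16.4 RPKM in KO NT and at 9.3, 7.79 and 7.8 in WT NT, a ratio of 1.9 (0.85 ± 0.06, limma adjusted p = 8.7e-07). Lrrn4 was at 10.7, 9.68 and 10.5 in KO NT and at 0.00706 to 0.0248 in WT NT. Gpm6a was at 11, 9.13 and 10.2, with 1 read in the WT NT libraries together. Bnc1, Pkhd1l1 and Rspo1 were low in this table even in KO NT, at 2.08 ± 0.0656, 2.79 ± 0.412 and 1.99 ± 0.488 (SD, n = 3). Rspo1 had the smallest ratio after Msln, 10.7.

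With NT siRNA 10 of 10 genes were called higher, where 23.7% of the 12668 genes tested were higher and 40.4% lower. With H2AZ siRNA it was again 10 of 10, where 20.2% were higher and 42.7% lower. In this table only Msln passed the filter of 1 RPKM in 3 libraries through WT libraries, and the other 9 passed it through KO, so no p-value is given for those 9 and the counts support nothing. Centring each library on its median gene removed a shift of -0.12 and -0.15 on the log2 scale from these comparisons, and all 10 genes stayed higher under it.

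The make-up of the set also differed between the experiments. Within each KO DMSO and KO DAC library Pkhd1l1 was 1.86 to 2.33 times as high as Wt1 per length, while within each KO NT and KO H2AZ siRNA library it was 0.549 to 0.767 times as high. Upk3b was 1.23 to 1.39 times as high as Podxl in the former libraries and 2.78 to 3.38 times in the latter. A ratio inside a library does not depend on the scaling of its total, but the tables also differ in treatment and in how read pairs were counted, so the 2 sets of ratios are given side by side without a test. In KO NT the levels ran Upk3b, Upk1b, Podxl, Msln, Lrrn4, Gpm6a, Wt1, Pkhd1l1, Bnc1 and Rspo1, with overlap between Lrrn4 and Gpm6a and between Bnc1 and Rspo1.

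Depletion of H2A.Z, the variant that ANP32E removes, left the set near its level in KO. The 10 log2 fold changes in KO ran from -0.51 to 0.20, with a median of -0.08, and the median of all tested genes was -0.06. Podxl fell most, from 21.6, 20.5 and 25.3 RPKM in KO NT to 14.4, 15.4 and 16.5 in KO H2AZ siRNA (-0.51 ± 0.08, limma adjusted p = 8.4e-04). Upk3b fell from 62.5, 61.8 and 70.4 to 47.1, 52 and 55.2 (-0.33 ± 0.06, limma adjusted p = 0.00356). In both genes each depleted library lay below each NT library, and both calls held in all 13 other settings. Smaller shifts were called for Lrrn4 (-0.19 ± 0.05, limma adjusted p = 0.0206), Msln (-0.21 ± 0.06, limma adjusted p = 0.0386) and Upk1b, which rose (0.20 ± 0.07, limma adjusted p = 0.0456). Those calls were lost in 7, 9 and 7 of 13 other settings.

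The uroplakins thus went opposite ways in the same libraries, Upk3b down and Upk1b from 27.8, 27.6 and 32.4 to 31.4, 34.1 and 35.4 RPKM, with the KO NT and KO H2AZ siRNA libraries of Upk1b overlapping. In KO, 4 genes were called lower, where 19% of all tested genes were lower, and 1 higher, where 6.56% were. For the other 5 genes no change was detected, and their 95% intervals were -0.22 to 0.01 for Wt1, -0.05 to 0.31 for Gpm6a, -0.09 to 0.20 for Bnc1, -0.26 to 0.15 for Pkhd1l1 and -0.12 to 0.35 for Rspo1.

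In WT MEFs H2AZ siRNA was not followed by a called rise in any of the genes. Upk3b, Upk1b and Wt1 had 0 reads in all 3 WT H2AZ siRNA libraries, which allows at most 3 reads in each, and the 95% interval for Podxl was -0.20 to 0.14. Msln was at 6.02, 6.11 and 5.97 RPKM against 9.3, 7.79 and 7.8 in WT NT and fell (-0.40 ± 0.06, limma adjusted p = 0.00236), as did 10.4% of all tested genes. That call held in all 13 other settings. No other gene of the set was called, lower or higher, where 4.88% of all genes were higher.

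The response to H2AZ siRNA was also compared between genotypes, as the change in KO minus that in WT. For Podxl it was -0.49 ± 0.11 (limma adjusted p = 0.241), for Upk3b -0.33 ± 0.09 (limma adjusted p = 0.345), and for Lrrn4 -0.18 ± 0.07 (limma adjusted p = 0.538). These 3 were the genes of the set with an unadjusted limma p under 0.05, and 0 of 10 were called after adjustment, in limma and in limma-voom. Among all tested genes 0.00789% were called with a higher and 0% with a lower response in KO. The 1 gene called was H2afz itself (0.72 ± 0.08, limma adjusted p = 0.0122). On the log2(RPKM + 1) scale it fell 11.1-fold in WT and 6.75-fold in KO, so the knockdown was weaker in KO. In WT NT, Podxl averaged 0.162 and Upk3b 0.00321 RPKM, levels at which this scale shows little of a fall.

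**Figure D4:**
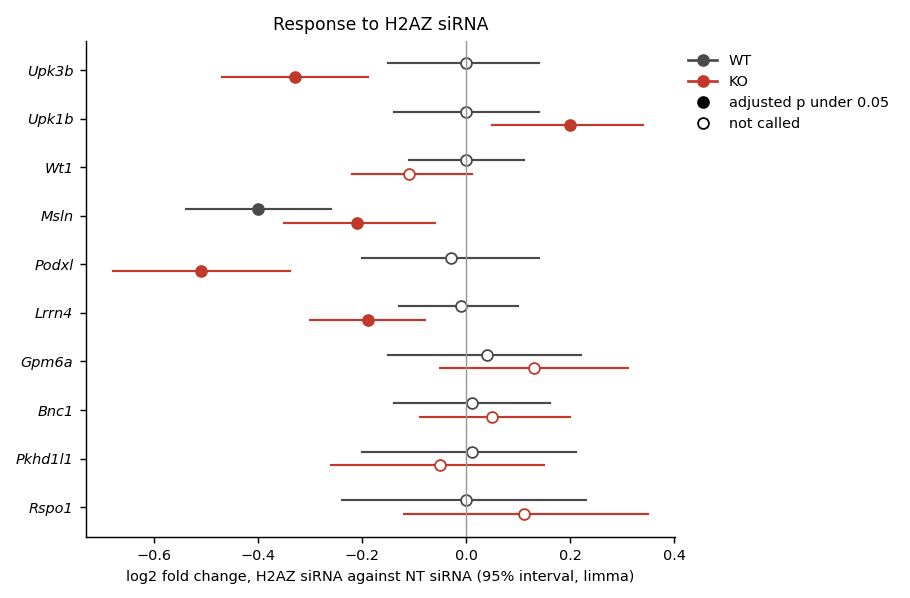
Log2 fold change of each gene after H2AZ siRNA against NT siRNA in WT (grey) and KO (red), with 95% limma intervals; filled points have an adjusted p under 0.05. Podxl and Upk3b lie left of 0 in KO, Upk1b right of it, and Msln left of 0 in both genotypes.

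Further genes tied to mesothelium were read from a list of 18 chosen by their textbook role, of which 17 were in the tables. Their summed level was 97.8 to 98.5 FPKM in WT DMSO, 679 in both KO DMSO libraries and 202 to 222 in KO DAC. Of the 14 genes that passed the filter, 11 lay higher and 3 lower in KO DMSO without overlap, beside the 34% and 40.8% of all tested genes given above. The steepest member was Aldh1a2, which makes retinoic acid, at 0.17 FPKM in WT DMSO, 37.2 in KO DMSO and 1.39 in KO DAC. Cldn15, a tight-junction claudin, was at 0.613, 29.1 and 3.37 in the same groups. The transcription factors Gata4 and Gata6 were at 5.97 and 12.4 in WT DMSO, 48.6 and 72.2 in KO DMSO, and 5.87 and 9.65 in KO DAC.

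The list did not move as one. Krt18, a keratin of simple epithelia, was at 0.528 FPKM in WT DMSO and 22.4 in KO DMSO, yet at 12.9 in KO DAC, and in WT it rose with DAC to 4.59 (1.84 ± 0.20, limma adjusted p = 2.4e-04). Anxa8, an annexin, was lower in KO than in WT, at 6.68 against 10.4 in DMSO. Calb2 and Tcf21, known markers in this lineage, were at or near 0 in all groups. With NT siRNA 11 of 13 tested genes of the list were called higher and 1 lower (23.7% and 40.4% of all genes). The largest differences were those of Krt18 (2.96 ± 0.08, limma adjusted p = 1.5e-10), Cldn15 (2.60 ± 0.11) and Ezr (2.23 ± 0.05, limma adjusted p = 2.1e-11). With H2AZ siRNA it was 11 higher and 2 lower (20.2% and 42.7% of all genes). In KO against WT under DAC it was 8 higher and 2 lower of 14 (11.1% and 11.6%), and for DAC in WT 8 higher and 2 lower (14.5% and 13.8%). Krt7, Cldn15, Nkain4, Gata4 and Gata6 did not reach the filter of the siRNA table through WT libraries alone. Krt7, Cldn15, Nkain4 and Aldh1a2 did not reach that of the FPKM table in this way. No p-value is therefore given for Cldn15, and the KO-against-WT counts of this list support nothing.

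The genes most like the set were found by correlating log2(value + 1) of 5961 candidate genes with the mean of the 10 over the libraries of each table and ranking by the lower of both values. The first 8 were Ezr, Smpd3, Bcam, Isyna1, Mgst1, Bex2, Cldn15 and Tspan8, with Pearson r of 0.987 to 0.998 over 10 libraries of the FPKM table and 0.994 to 0.999 over 12 of the RPKM table. In both tables KO and WT libraries form separate groups that these r mostly reflect, and the libraries share their scaling. Ezr (ezrin), which ties apical membrane proteins such as podocalyxin to actin, averaged 12.5 FPKM in WT DMSO, 209 in KO DMSO, 16 in WT DAC and 46.4 in KO DAC. Smpd3, a sphingomyelinase, was at 1.15, 97.5, 0.958 and 9.32 in the same order. Tspan8, a tetraspanin, was listed at 0 in WT DMSO and at 15.4 in KO DMSO, 0.0273 in WT DAC and 1.39 in KO DAC. Within the set itself, 9 genes had an r of at least 0.947 in both tables with a mean that includes them, while Msln had 0.238 in the FPKM table and 0.946 in the RPKM table.

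In the DMSO groups the other uroplakins stayed low, and Rspo2 and Rspo3 went against Rspo1. With NT siRNA Rspo3 went the same way as Rspo1, at 5.33 RPKM in WT and 9.95 in KO. The other uroplakins Upk1a, Upk2, Upk3a and Upk3bl summed to 0.764 to 0.974 FPKM in KO DMSO and 0.51 to 0.557 in WT DMSO, with Upk2 listed at 0 in both groups, although Upk3b and Upk1b stood at 384 and 108 FPKM in KO DMSO. Rspo2 and Rspo3, which act like Rspo1, were at 24.5 and 28.5 FPKM in WT DMSO and 4.21 and 9.68 in KO DMSO, the reverse of Rspo1. The receptor Lgr4 was at 15.1 and 16.3 FPKM in these groups, and Lgr6 at 0.368 and 4.92. With NT siRNA 1 of 4 tested genes of this R-spondin and Wnt receptor list was called higher (Rspo3, 0.81 ± 0.14, limma adjusted p = 3.2e-04) and none lower. Of all tested genes 23.7% were higher and 40.4% lower, and nothing is read from this count.

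Several of the 10 genes also mark other cell types, so the defining genes of those were read. Wt1 and Podxl are podocyte genes, but Nphs1, which encodes nephrin of the podocyte slit diaphragm, was at most 0.00746 FPKM and 0.00161 RPKM in any group mean. The podocyte list of 8 genes summed to 93.6 to 97.2 FPKM in WT DMSO, 132 to 135 in KO DMSO and 93.3 to 96.7 in KO DAC, and less specific members were higher in KO DMSO than in WT DMSO, Cd2ap at 58.8 against 16.3 and Synpo at 24 against 13. Synpo averaged 0.873 RPKM in WT NT and 1.79 in KO NT (log2 fold change 0.58 ± 0.08). Its WT libraries alone did not reach the filter of that table, so no p-value is given. Upk1b and Upk3b are named for urothelium, where Krt5 and Krt20 were at most 0.0416 FPKM and the list of 6 genes summed to 1.33 to 1.39 FPKM in KO DMSO. Wt1 and Rspo1 are expressed in gonadal support cells. There Nr5a1 averaged 0.0304 FPKM in WT DMSO, against 4.58 for KO DMSO and 0.676 for KO DAC. With NT siRNA its means were 0 RPKM for WT and 1.32 for KO (log2 fold change 1.21 ± 0.07). Like Synpo, Nr5a1 did not reach the filter of the siRNA table through WT libraries alone, so no p-value is given for it. Amh, Dhh, Foxl2 and Cyp11a1 were under 1 FPKM in every group. The gonadal list of 7 genes summed to 10.1 to 10.6 FPKM in WT DMSO, 31.3 to 33.5 in KO DMSO and 9.07 to 9.94 in KO DAC.

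Epithelial and endothelial genes were low. The list of 8 other epithelial genes summed to 8.76 to 9.11 FPKM in KO DMSO against 0.287 to 0.809 in WT DMSO, with Cdh1 at 3.34 and 0.168 and Epcam at 0.907 and 0. The endothelial list of 7 genes summed to 1.37 to 1.4 FPKM in WT DMSO and 2.27 to 2.78 in KO DMSO, with Kdr at 0.838 and 1.61, Pecam1 at 0.0358 and 0.218, and Cdh5 listed at 0 in both. Kdr was called higher in KO with NT siRNA (0.37 ± 0.07, limma adjusted p = 9.2e-04). The part of any of these cell types in the levels of the 10 genes was not tested.

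**Figure D5:**
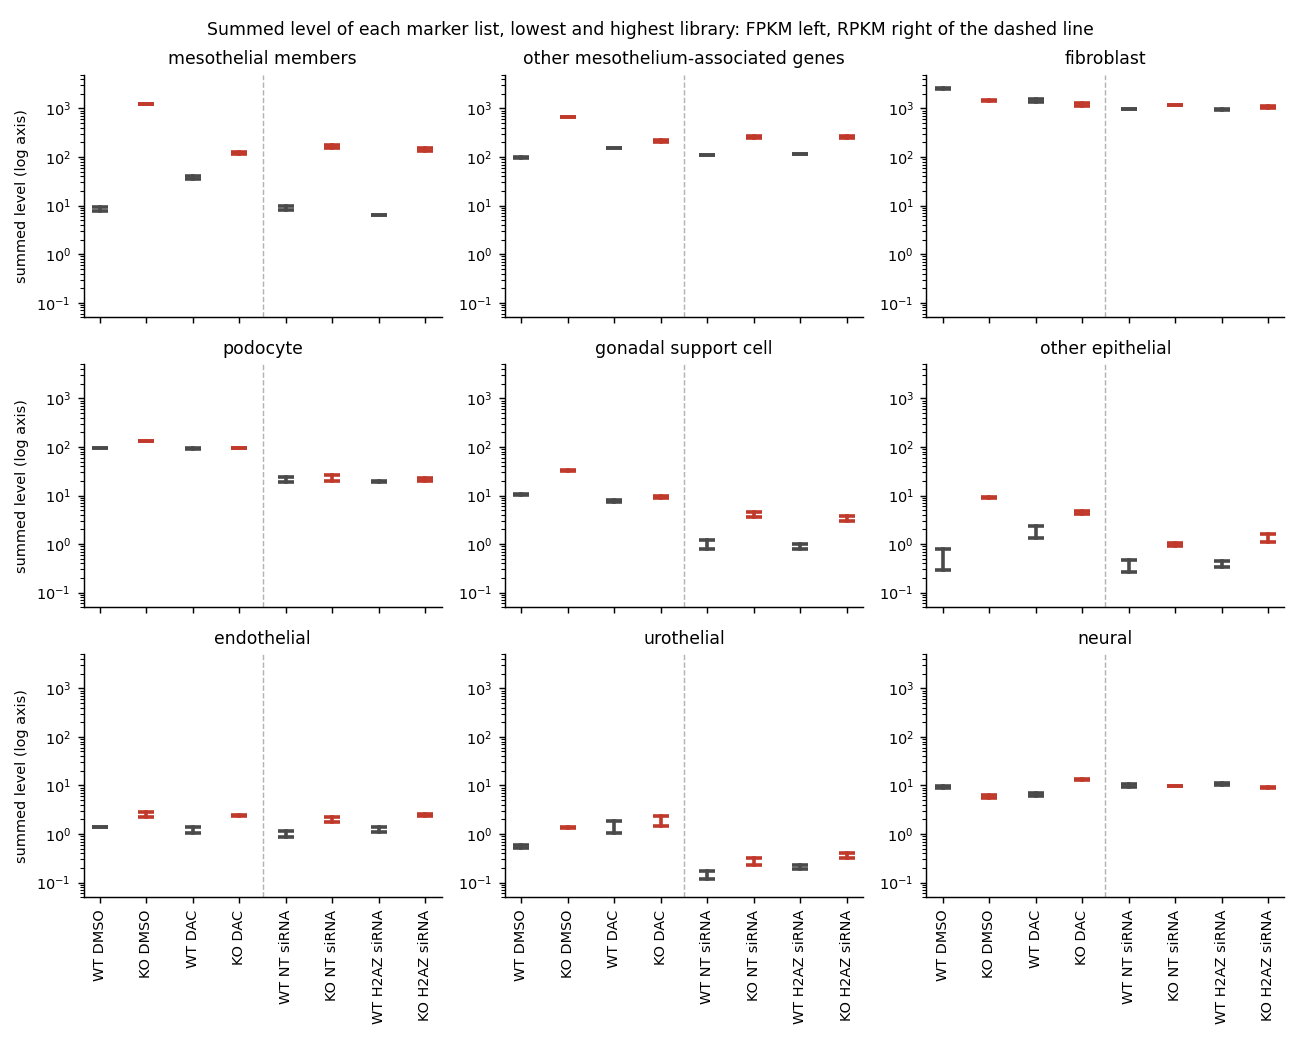
Summed level of each marker list on a log axis, as the lowest and highest library of each group (dashes), in FPKM left and RPKM right of the dashed line, WT in grey and KO in red. The mesothelial members go from 7.6 to 9.39 FPKM in WT DMSO to 1220 to 1246 in KO DMSO. The lowest fibroblast sum of any library in FPKM is 1113, in KO DAC.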

How the data were processed

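The 22 RNA libraries were used; the CUT&Tag samples were not analysed here. The authors deposited FPKM for the DAC table and RPKM for the siRNA table. STAR, Bowtie2, deepTools and mm10 were used, per the submitters' processing notes; their versions, the counter and the annotation are not known here. The kit was stranded total RNA with paired ends, per the labels' protocols. The 10 genes and all lists were chosen with earlier results of these data known. They were named by symbol, and up to 3 called genes per other list with the largest change; other genes of those lists were chosen after their values were seen. The 8 most alike genes had a highest group mean of at least 5 in both tables and were no predicted genes.

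Whole reads were recovered from the value steps for all 30078 and 32935 genes above 0, within 0.01 reads. In the DAC table even numbers prevailed (among genes over 200 reads in a library, 14 entries of 1 read and 106 of 2), so read numbers there overstate independent fragments; floors of 3 reads cover counting error only.

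Genes at 1 or more in at least 2 (DAC table) or 3 (siRNA table) libraries were tested with limma 3.58.1 (R 4.3.3) on log2(value + 1) with an intensity trend. All 4 groups of a table shared 1 fit, with Benjamini-Hochberg adjustment within a comparison and calls at an adjusted p under 0.05; the pseudocount of 1 understates changes of low genes. The fit was tested on simulated data. Settings varied were the pseudocount (0.1), the filter (none, or 5), the scaling (median centring), a replicate block, only the groups compared, limma-voom on recovered reads, and each library left out. Python 3.11.15, numpy 2.4.6, pandas 2.3.3 and matplotlib 3.10.9 did the rest. Sequences and positions are from RefSeq (GRCm38.p6).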

Additional observations from a re-analysis of the deposited data

Results flagged for a closer look

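The DAC libraries of 3 genes lay above those of DMSO in WT and below them in KO, with no overlap between the DAC and DMSO libraries of either genotype, as was so for 4% of the 16434 genes tested. Podxl differed by 0.56 in WT and -3.47 in KO on the log2(FPKM + 1) scale. Lrrn4 differed by 0.15 in WT and -4.30 in KO, and Bnc1 by 0.29 in WT and -3.33 in KO. In WT, limma did not call the differences of Lrrn4 and Bnc1. Lrrn4 had 0 reads in WT DMSO and 4, 6 and 30 in WT DAC, and Bnc1 2 in all in WT DMSO and 42, 28 and 35 in WT DAC. The difference between genotypes was not tested, because the DMSO libraries chose the genes.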

How the results depend on the processing

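Over 930 values of single genes under other settings, 892 kept their call or stayed uncalled, 35 lost the call and 3 gained it. Among values called in either fit, 0 reversed direction. Uncalled values could change sign, such as Upk3b with DAC in WT, at 0.47 and at -0.05 without WT DAC replicate 3. With a filter at 5 the siRNA table kept 6 of the genes, and all 6 were called higher in KO with NT siRNA and 6 with H2AZ siRNA. The 5 genes called with H2AZ siRNA in KO became 3 with a pseudocount of 0.1, 3 with no filter, 3 with median centring and 2 with only the groups compared, and 2 to 3 when each library was left out. With DAC in WT the count was 1 to 2 when each library was left out, 1 without either WT DMSO library. KO against WT in DAC gave 9 to 10, and the other counts stayed at 10, 10, 1 and 0. Settings for the 2 described medians were chosen after seeing the data. With a pseudocount of 0.1 the KO-WT median in DMSO was 9.12 and the DAC-DMSO median in KO -3.53. A lone remaining WT DMSO library was taken to vary as the other groups do. The difference of responses needs all 4 groups, so no fit on fewer was made. Depth limits the WT values, many of which are a few reads.

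Same-numbered libraries deviated together in 1 of 13 pairs of the DAC table and 6 of 18 of the siRNA table at a correlation over 0.1, so the numbers were not read as pairing the libraries. With the replicate block, 9 genes were called for KO against WT in DAC (Msln adjusted p = 0.0743, limma), 2 with DAC in WT, 10 in both KO-WT comparisons of the siRNA table, 1 and 5 with H2AZ siRNA in WT and KO, and 0 for their difference.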
